A study of Mus musculus with 6 samples.

Results

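The 10 genes described here encode the steps of taste transduction that tuft cells share with taste receptor cells. They are the receptor subunits *Tas1r1* and *Tas1r3*, the G protein subunits *Gnat3*, *Gnb3* and *Gng13*, the regulator of G protein signalling *Rgs13*, the phospholipases *Plcb2* and *Plcg2*, the calcium release channel *Itpr3* and the cation channel *Trpm5*. They were picked by symbol out of 39179 genes counted, with earlier results of these libraries known, so their difference between the subsets is given as a description. All 10 were found among the counts. RNA was sequenced from *Cxcl12*DsRed- cTEC and *Cxcl12*DsRed+ cTEC of untreated *Cxcl12*::DsRed knockin mice, which were 10 weeks of age on a C57BL/6 background. DsRed is a red fluorescent protein that reports *Cxcl12* expression in these mice, and both subsets carried the same reporter allele. Cells were sorted as CD45-EpCAM1+UEA1-Ly51+, the phenotype of cortical thymic epithelial cells, and split by DsRed. Experiments A, B and C each gave 1 library per subset, 6 libraries in all. The sources used here do not say how many mice were pooled for a library.

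In taste cells and in tuft cells, a ligand on a G protein-coupled receptor releases the beta and gamma subunits from gustducin, which activate phospholipase C. The inositol trisphosphate so made opens calcium channels in the endoplasmic reticulum, and the rise in calcium opens TRPM5, which depolarises the cell. Tuft cells are chemosensory epithelial cells of mucosal surfaces, and in the thymus they are described as a mimetic type of the medulla. RNA of sorted cells in bulk does not tell fewer cells of a type apart from less RNA per cell.

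The libraries held 34574900 to 51042679 counts in genes. Levels are CPM, the count per 1e+06 counts scaled by TMM. Unscaled, the DsRed transcript stood at 16.8 to 28.6 CPM in the *Cxcl12*DsRed- libraries and at 891 to 2055 CPM in the *Cxcl12*DsRed+ libraries, which matches the labels. Of the cTEC markers, the thymoproteasome gene *Psmb11* stood at 13.6 to 51.2 CPM in *Cxcl12*DsRed- cTEC against 524 to 1040 CPM, and the protease gene *Prss16* at 74.5 to 163 CPM against 2270 to 4190 CPM. Both fell (edgeR adjusted p of 0.0413 and 0.0319), as did 0.173% of all genes tested. Of the 8 cTEC markers listed, only these 2 had an edgeR adjusted p under 0.05. By sign 7 of the 8 were lower in *Cxcl12*DsRed- cTEC and 1 was higher. *Foxn1*, *Ly75* and *Enpep* fell less, with means of 90.7, 83.0 and 72.55 CPM against 241, 204 and 137 CPM (edgeR adjusted p of 0.189, 0.189 and 0.0785). Below, fold changes are *Cxcl12*DsRed- over *Cxcl12*DsRed+ cTEC. Of the 10 genes, 9 passed the filter on low counts and *Tas1r1* did not. For 7 of these 9, every *Cxcl12*DsRed- library was above every *Cxcl12*DsRed+ library, a pattern that 9.73% of the 15576 genes tested showed. By the quasi-likelihood test of edgeR, 2 of the 9 passed as higher at an adjusted p under 0.05, *Trpm5* and *Gng13*, against 0.449% of all genes tested. With the experiment as a block 4 passed, *Gnb3* and *Rgs13* being the others, against 0.334% of all genes (0.469% in either direction). The likelihood ratio test passed 6 against 3.53% of all genes, DESeq2 7 against 4.52% and limma with voom 0 against 0.0193%, and in either direction these methods passed 5.65%, 6.94% and 0.0257% of all genes. At an unadjusted p under 0.05 from edgeR 7 were higher, and 11.8% of all genes passed in either direction. Limma with voom gave 4 members at that level. These counts describe genes that were chosen with this contrast known.

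**Figure D1:**
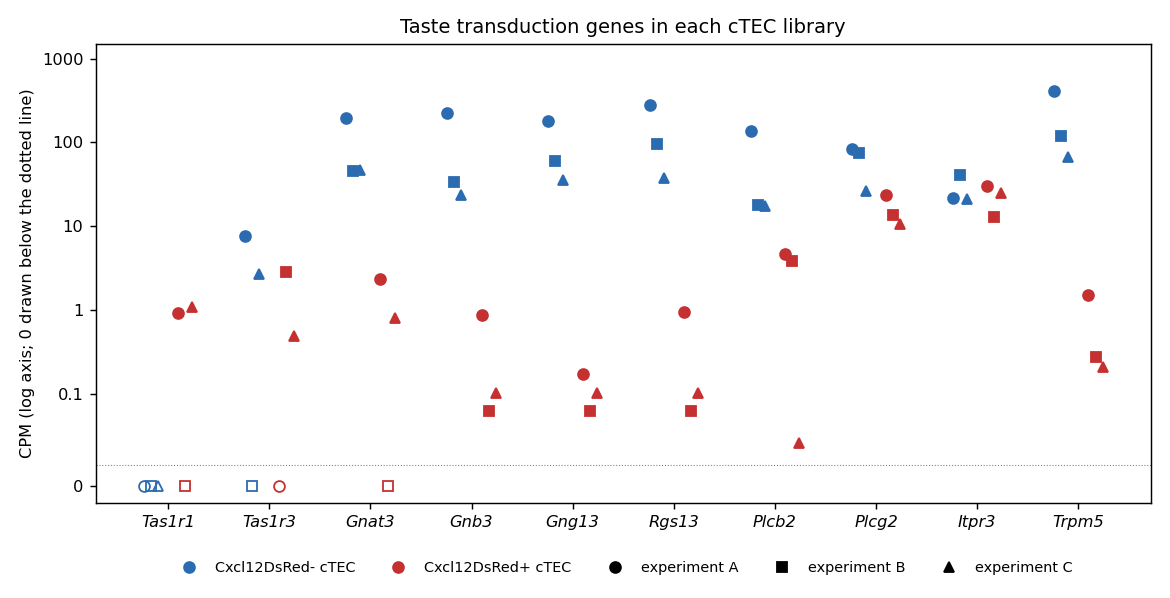
CPM of the 10 genes in each library on a log axis, with values of 0 drawn below the dotted line. Blue points are *Cxcl12*DsRed- cTEC, red points *Cxcl12*DsRed+ cTEC, and the shape gives the experiment. Blue and red points do not overlap for *Gnat3*, *Gnb3*, *Gng13*, *Rgs13*, *Plcb2*, *Plcg2* and *Trpm5*, and they do for *Itpr3* and *Tas1r3*.

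Promoter sequences are shown for *Trpm5* and *Rgs13*, whose levels separate the subsets, and for *Itpr3*, whose levels do not. Each is the 250 bases before the RefSeq start on GRCm38.p6, read 5′ to 3′ along the gene, and capitals mark each CG dinucleotide. They lie at chr7:143094643-143094892 on the minus strand for *Trpm5*, at chr1:144177373-144177622 on the minus strand for *Rgs13* and at chr17:27057054-27057303 on the plus strand for *Itpr3*.
Trpm5: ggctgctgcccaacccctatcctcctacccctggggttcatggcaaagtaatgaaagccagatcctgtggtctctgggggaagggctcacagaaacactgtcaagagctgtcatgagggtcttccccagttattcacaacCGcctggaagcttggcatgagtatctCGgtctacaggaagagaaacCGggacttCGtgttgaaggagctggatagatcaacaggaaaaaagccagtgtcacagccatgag
Rgs13: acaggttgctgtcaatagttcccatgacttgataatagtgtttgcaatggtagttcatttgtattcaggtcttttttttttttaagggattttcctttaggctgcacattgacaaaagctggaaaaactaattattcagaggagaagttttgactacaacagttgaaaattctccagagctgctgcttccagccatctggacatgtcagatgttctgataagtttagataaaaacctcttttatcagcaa
Itpr3: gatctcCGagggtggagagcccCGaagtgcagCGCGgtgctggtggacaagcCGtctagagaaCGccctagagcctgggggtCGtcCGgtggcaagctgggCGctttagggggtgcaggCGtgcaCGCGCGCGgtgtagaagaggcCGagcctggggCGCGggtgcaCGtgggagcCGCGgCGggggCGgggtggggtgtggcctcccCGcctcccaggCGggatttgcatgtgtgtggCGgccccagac

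The 3 stretches differ in their CG content. The *Trpm5* stretch holds 4 CG dinucleotides at 52.8% G and C. The *Rgs13* stretch holds 0 at 36.0% G and C, and the *Itpr3* stretch holds 25 at 72.0%. The median over the 32851 promoters of the RefSeq table is 6. RefSeq gave a promoter for 9 of the 10 genes. Among these, the stretch of *Gnat3* holds 2 CG dinucleotides, that of *Plcb2* 4, and that of *Plcg2* 17. *Tas1r1* with 4 and *Tas1r3* with 5 are about as poor in CG as *Trpm5*, although their levels do not separate the subsets as those of *Trpm5* do, so CG content did not follow the separation in all members. *Gng13* has 2 listed starts, with 2 and 25 CG dinucleotides, and the counts do not say which is used. The octamer ATGCAAAT, the DNA word of POU factors such as POU2F3, the master regulator of tuft cells, was searched on both strands in the 300 bases from 250 before to 50 after each start. Of the 10 promoters of these genes 1 holds it, that of *Itpr3*, where it lies on the reverse strand 27 to 20 bases before the start. The octamer is present in 1.74% of all promoters. CG content was examined after the expression values were seen, and both are descriptions of sequence.

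*Trpm5* (ENSMUSG00000009246) encodes the calcium-activated cation channel at the end of the pathway. It lies on chromosome 7 from 143069153 to 143094642 on the minus strand of GRCm38, and 220 of its exonic bases overlap *Tssc4* on the other strand. It stood at 415, 119 and 66.9 CPM in *Cxcl12*DsRed- cTEC of experiments A, B and C. In the *Cxcl12*DsRed+ libraries it stood at 1.49, 0.271 and 0.206 CPM, from 79, 13 and 8 counts. The lowest *Cxcl12*DsRed- library was thus far above the highest *Cxcl12*DsRed+ library. Its log2 fold change was 8.22 (standard error 1.21). Within the experiments the ratio of the subsets was 278 in A, 440 in B and 325 in C, so the ratio varied less than the level did. By qPCR, the study reported that *Trpm5* was lacking from both cTEC subsets and detected in mTEC. That is another measure than the reads given here, and the reason for the difference was not tested.

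The G protein genes separated the subsets as the channel did. *Gnat3* (ENSMUSG00000028777, chromosome 5 from 17962549 to 18019834) encodes gustducin, the alpha subunit named for taste. It stood at 197, 46.0 and 46.9 CPM in the A, B and C libraries of *Cxcl12*DsRed- cTEC, and at 2.32, 0 and 0.799 CPM in the *Cxcl12*DsRed+ libraries. Subsets did not overlap, and the *Cxcl12*DsRed+ library of B had 0 counts, which allows up to 0.0626 CPM. The log2 fold change of *Gnat3* was 6.53 (standard error 1.52).

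*Gnb3* (ENSMUSG00000023439, chromosome 6 from 124834240 to 124840275) encodes the beta subunit that gustducin binds in taste cells. It stood at 224, 34.0 and 23.4 CPM in *Cxcl12*DsRed- cTEC and at 0.869, 0.0626 and 0.103 CPM in *Cxcl12*DsRed+ cTEC. In both subsets experiment A held the highest value. The log2 fold change was 8.04 (standard error 1.50). *Gng13* (ENSMUSG00000025739, chromosome 17 from 25717171 to 25719406) encodes the gamma subunit of the same complex. It stood at 181, 60.8 and 35.6 CPM in *Cxcl12*DsRed- cTEC and at 0.170, 0.0626 and 0.103 CPM in *Cxcl12*DsRed+ cTEC, where the counts were 9, 3 and 4. *Gng13* was the member nearest to absence from *Cxcl12*DsRed+ cTEC among those with counts in both subsets, with a log2 fold change of 9.64 (standard error 0.92). Of its exonic bases 399 overlap *Chtf18* on the other strand, a gene with 1004 counts over all libraries.

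*Rgs13* (ENSMUSG00000051079, chromosome 1 from 144138654 to 144177372) encodes a protein that speeds the return of G protein alpha subunits to the inactive state. It stood at 278, 96.7 and 37.9 CPM in *Cxcl12*DsRed- cTEC and at 0.945, 0.0626 and 0.103 CPM in *Cxcl12*DsRed+ cTEC. The order A, B, C of its *Cxcl12*DsRed- libraries was that of *Trpm5*. Its log2 fold change was 8.49 (standard error 1.37). *Rgs13* is also known from B cells and mast cells. Of the 8 B cell markers listed, *Pax5* and *Fcrla* were among those with 0 counts in all 6 libraries. The summed level of the 8 was 43.3 to 121 CPM in *Cxcl12*DsRed- cTEC and 7.26 to 127 CPM in *Cxcl12*DsRed+ cTEC. *Blnk* and *Cd79b*, which encode an adaptor and a chain of the B cell receptor, did not overlap between the subsets and were higher in *Cxcl12*DsRed- cTEC. Of all genes tested, 9.73% showed this pattern. The other tested B cell markers, *Cd79a* and *Ighm*, overlapped, with log2 fold changes of 0.027 and −0.73, and none of the 4 tested passed edgeR's quasi-likelihood test. Of the 7 mast cell markers, *Fcer1a*, *Ms4a2* and *Tpsb2* had 0 counts in all libraries, and the summed level of the 7 was 6.45 to 63.8 CPM against 0.231 to 6.36 CPM. *Kit*, the only 1 tested, stood at 29.3, 41.8 and 6.4 CPM against 0.586, 6.36 and 0.18 CPM (edgeR adjusted p = 0.4). *Cma1*, *Cpa3* and *Mcpt4* were highest in the *Cxcl12*DsRed- library of B, at 10.7, 6.33 and 4.99 CPM. The part of B cells and mast cells in the level of *Rgs13* was not tested.

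The phospholipases differed from each other. *Plcb2* (ENSMUSG00000040061, chromosome 2 from 118707517 to 118728438) encodes the isoform that beta and gamma subunits activate in taste cells. It stood at 138, 18.0 and 17.6 CPM in *Cxcl12*DsRed- cTEC and at 4.63, 3.84 and 0.0258 CPM in *Cxcl12*DsRed+ cTEC. Subsets did not overlap, but the gap was narrow in B, and the lowest value was a single count in the *Cxcl12*DsRed+ library of C. The log2 fold change was 4.35 (standard error 1.54).

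*Plcg2* (ENSMUSG00000034330, chromosome 8 from 117498291 to 117635142) encodes an isoform that tyrosine kinases activate, known from B cells and myeloid cells as well as tuft cells. It stood at 83.6, 74.6 and 26.2 CPM in *Cxcl12*DsRed- cTEC and at 23.3, 13.7 and 10.7 CPM in *Cxcl12*DsRed+ cTEC. Every *Cxcl12*DsRed- value was higher, though the lowest was only just above the highest *Cxcl12*DsRed+ value. Its log2 fold change was 1.95 (standard error 0.52). The mean of the *Cxcl12*DsRed+ libraries was 25.9% of that of the *Cxcl12*DsRed- libraries for *Plcg2*, against 0.121% to 4.89% for the 6 other genes whose subsets did not overlap. The 8 myeloid markers listed summed to 144 to 874 CPM in *Cxcl12*DsRed- cTEC and to 36.2 to 91.0 CPM in *Cxcl12*DsRed+ cTEC. Among them is *Ptprc*, which encodes CD45, the protein that the sort selects against. It stood at 23.5, 8.55 and 4.03 CPM against 8.51, 15.6 and 0.618 CPM. Most of these sums in *Cxcl12*DsRed- cTEC was *Lyz2*, at 462, 803 and 128 CPM against 19.1, 31.9 and 80.8 CPM. Of the 8 markers, *Lyz2* and *Itgam* were higher without overlap between the subsets, a pattern that 9.73% of all genes tested showed. The other 6 overlapped, and *Tyrobp* had a negative log2 fold change (−0.60). Of the 7 tested none passed edgeR's quasi-likelihood test, with adjusted p of 0.122 to 0.939, and their part in the level of *Plcg2* was not tested.

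*Itpr3* (ENSMUSG00000042644, chromosome 17 from 27057304 to 27122223) encodes the inositol trisphosphate receptor of taste cells, and many other epithelia make it. It stood at 21.6, 40.5 and 21.3 CPM in *Cxcl12*DsRed- cTEC and at 29.8, 13.0 and 24.8 CPM in *Cxcl12*DsRed+ cTEC. The subsets overlapped, with *Cxcl12*DsRed- cTEC lower in A and C and higher in B. The log2 fold change was 0.30 (standard error 0.45), and it was −0.07 without the *Cxcl12*DsRed- library of B. *Itpr3* was thus the member of the downstream steps that did not separate the subsets in these libraries.

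Taste receptor subunits were rare. *Tas1r3* (ENSMUSG00000029072, chromosome 4 from 155859268 to 155863362), the subunit shared by the umami and sweet receptors, stood at 7.67, 0 and 2.68 CPM in *Cxcl12*DsRed- cTEC and at 0, 2.84 and 0.490 CPM in *Cxcl12*DsRed+ cTEC. Each subset had a library with 0 counts, from different experiments. The log2 fold change was 1.64 (standard error 2.30), with 36 exonic bases shared with *Dvl1* on the other strand. *Tas1r1* (ENSMUSG00000028950, chromosome 4 from 152027914 to 152038568), the umami subunit that joins *Tas1r3*, had 0 counts in all 3 *Cxcl12*DsRed- libraries, a level of at most 0.0693 to 0.0913 CPM. In *Cxcl12*DsRed+ cTEC it had 48, 0 and 42 counts. At this depth no *Cxcl12*DsRed- library held reads of both umami subunits.

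Levels can be set side by side per kilobase of exon, here the union of annotated exons. In *Cxcl12*DsRed- cTEC the mean was 119 CPM per kilobase for *Gng13*, 83.0 for *Rgs13*, 71.1 for *Gnat3*, 35.6 for *Gnb3*, 31.3 for *Trpm5*, 14.3 for *Plcg2*, 8.78 for *Plcb2*, 3.08 for *Itpr3* and 0.979 for *Tas1r3*. In this order *Gng13* was above *Rgs13*, *Gnat3* above *Gnb3*, *Trpm5* above *Plcg2* and *Itpr3* above *Tas1r3* in all 3 libraries. The neighbours *Rgs13* and *Gnat3*, *Gnb3* and *Trpm5*, *Plcg2* and *Plcb2*, and *Plcb2* and *Itpr3* changed places in at least 1 library. In *Cxcl12*DsRed+ cTEC the order was another, with *Plcg2* at 3.71 and *Itpr3* at 2.49 CPM per kilobase and the other 8 at 0.103 to 0.765.

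Relative to *Trpm5* in the same *Cxcl12*DsRed- library, the genes varied to different degrees. Per kilobase *Gng13* stood at 361%, 421% and 438% of *Trpm5* in A, B and C. *Gnat3* stood at 223%, 181% and 328%, and *Rgs13* at 259%, 312% and 218%. *Gnb3* was above *Trpm5* in A and below it in B and C, at 131%, 69.0% and 84.8%. *Itpr3* stood at 3.68% of *Trpm5* in A and at 24.0% and 22.5% in B and C. *Plcg2* likewise was lowest relative to *Trpm5* in A, at 29.9% against 93.0% and 58.0%, while *Plcb2* was highest there, at 32.2% against 14.6% and 25.4%.

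**Figure D2:**
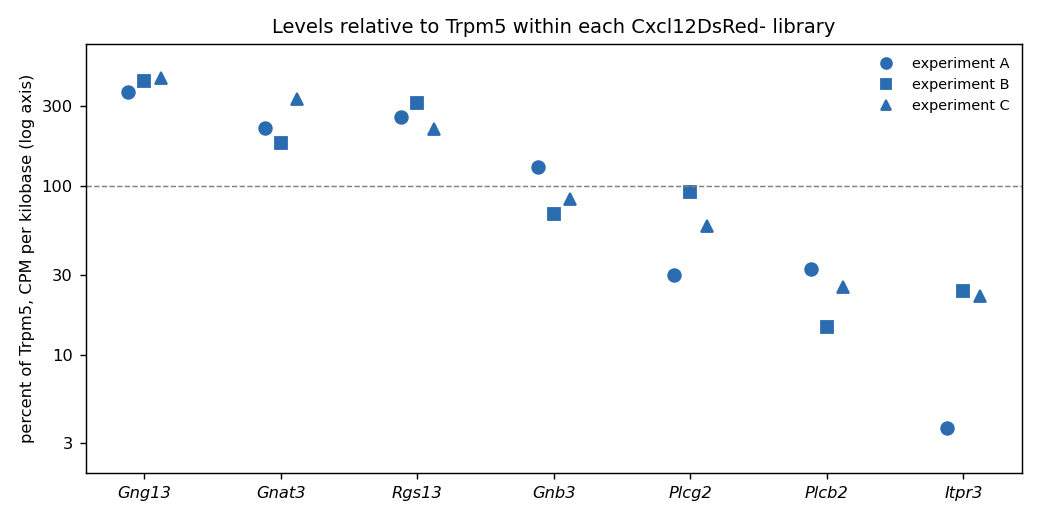
CPM per kilobase of 7 genes as a percent of that of *Trpm5* in the same *Cxcl12*DsRed- library, on a log axis, with the shape giving the experiment and the dashed line at 100%. *Gng13*, *Gnat3* and *Rgs13* lie above the line in all 3 libraries, and *Itpr3* lies at 3.68% in experiment A and at 22.5% or more in B and C.

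The *Cxcl12*DsRed- library of A held most of the signal. It held 65.2% to 79.6% of the CPM summed over the 3 *Cxcl12*DsRed- libraries for *Trpm5*, *Gnat3*, *Gnb3*, *Gng13*, *Rgs13* and *Plcb2*. Its share was 45.3% for *Plcg2* and 25.9% for *Itpr3*. The 10 genes together stood at 1550, 490 and 278 CPM in the *Cxcl12*DsRed- libraries and at 64.4, 33.8 and 38.4 CPM in the *Cxcl12*DsRed+ libraries. Without the *Cxcl12*DsRed- library of A the log2 fold change of *Trpm5* was 7.09. No gene of all those tested then passed, 1581 of them having an unadjusted p under 0.05 from edgeR. This loss of calls was not particular to that library. Dropping any other single library from experiments A and B also gave 0 calls over all genes. In experiment C, 1 gene passed when *Cxcl12*DsRed+ cTEC were dropped, and 139 when *Cxcl12*DsRed- cTEC were dropped.

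Other tuft cell markers varied with them. The 20 listed markers other than the 10 genes, among them *Pou2f3*, *Avil*, *Dclk1* and the cytokine gene *Il25*, summed to 4240, 1150 and 727 CPM in the A, B and C libraries of *Cxcl12*DsRed- cTEC and to 97.1, 109 and 169 CPM in the *Cxcl12*DsRed+ libraries. The actin regulator gene *Avil* stood at 1030, 271 and 175 CPM against 3.46, 0.939 and 0.155 CPM. *Pou2f3* itself stood at 82.0, 18.5 and 10.9 CPM against 1.49 to 5.41 CPM. Of the 20 markers 19 were tested. All 19 had a positive log2 fold change, with a median of 5.12 against 0.0204 over all genes tested, and *Chat*, *Alox5ap* and *Gfi1b* were among those that passed edgeR's quasi-likelihood test. Of the 20, 19 were highest in A among the *Cxcl12*DsRed- libraries, *Gfi1b* being highest in B.

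**Figure D3:**
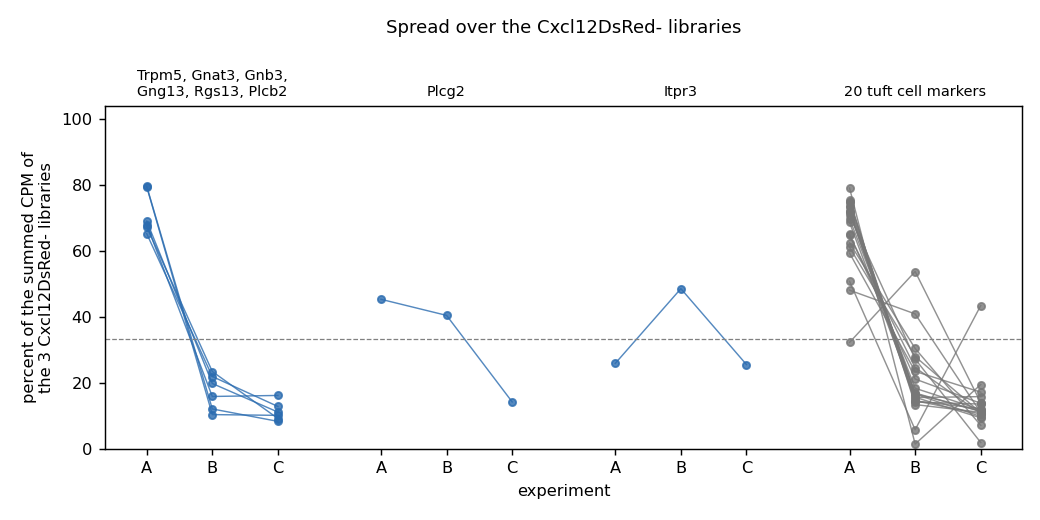
Share of each *Cxcl12*DsRed- library, in percent, in the CPM summed over the 3 *Cxcl12*DsRed- libraries, with a line joining the values of each gene and the dashed line at equal shares. Library A holds 65.2% or more for *Trpm5*, *Gnat3*, *Gnb3*, *Gng13*, *Rgs13* and *Plcb2*, and 19 of the 20 tuft cell markers are highest there, whereas *Plcg2* is nearly even between A and B and *Itpr3* is highest in B.

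Markers of other cell types also moved with the subsets. The 4 microfold cell markers summed to 707 to 2090 CPM in *Cxcl12*DsRed- cTEC and 9.07 to 83.3 CPM in *Cxcl12*DsRed+ cTEC. The 6 neuroendocrine markers, of which *Neurod1* had 0 counts in every *Cxcl12*DsRed- library, summed to 6.25 to 240 CPM and 1.13 to 3.99 CPM. All 4 tested had a positive log2 fold change (median 5.48), and 2 did not overlap, a pattern of 9.73% of all genes tested. By edgeR's quasi-likelihood test 0 passed, and 1 with the experiment as a block, against 0.449% and 0.334% of all genes. The likelihood ratio test passed 3, against 3.53%. The 10 endothelial markers were lower in each *Cxcl12*DsRed- library than in any *Cxcl12*DsRed+ library, as were 9.32% of all genes tested, at 41.8 to 72.1 CPM in sum against 703 to 5020 CPM. The 7 thymocyte markers overlapped, at 29.5 to 80.8 CPM against 27.1 to 212 CPM. The part of these cells in the results was not tested.

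Of 145 other genes of the taste pathway and its protein families, 121 had a count and 86 were tested. By edgeR's quasi-likelihood test 1 passed as higher and none as lower, against 0.623% of all genes tested in either direction. At an unadjusted p under 0.05 from edgeR 22 passed, against 11.8% of all genes. By sign 38 were higher and 48 lower. The subsets did not overlap for 10 that were higher and 14 that were lower, patterns that 9.73% and 9.32% of all genes tested showed. Their median log2 fold change was −0.13. *Itprid1*, which encodes a protein that interacts with inositol trisphosphate receptors, rose, with 3 counts over the *Cxcl12*DsRed+ libraries and 44.9, 12.5 and 11.7 CPM in *Cxcl12*DsRed- cTEC (edgeR adjusted p = 0.0461). With the experiment as a block its edgeR adjusted p was 0.0528. *Lrmp*, also named *Irag2*, which encodes a partner of these receptors in the endoplasmic reticulum, stood at 738, 155 and 128 CPM against 6.75, 7.68 and 2.78 CPM (edgeR adjusted p = 0.0502, 5.89 ± 0.90 on the log2 scale, with the standard error). Both partners thus separated the subsets where *Itpr3* did not. *Itpr2* stood at 233, 87.8 and 75.5 CPM against 61.9, 67.1 and 52.4 CPM (edgeR adjusted p = 0.391). Of the 15 calcium store genes tested, 11 had a positive log2 fold change.

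**Figure D4:**
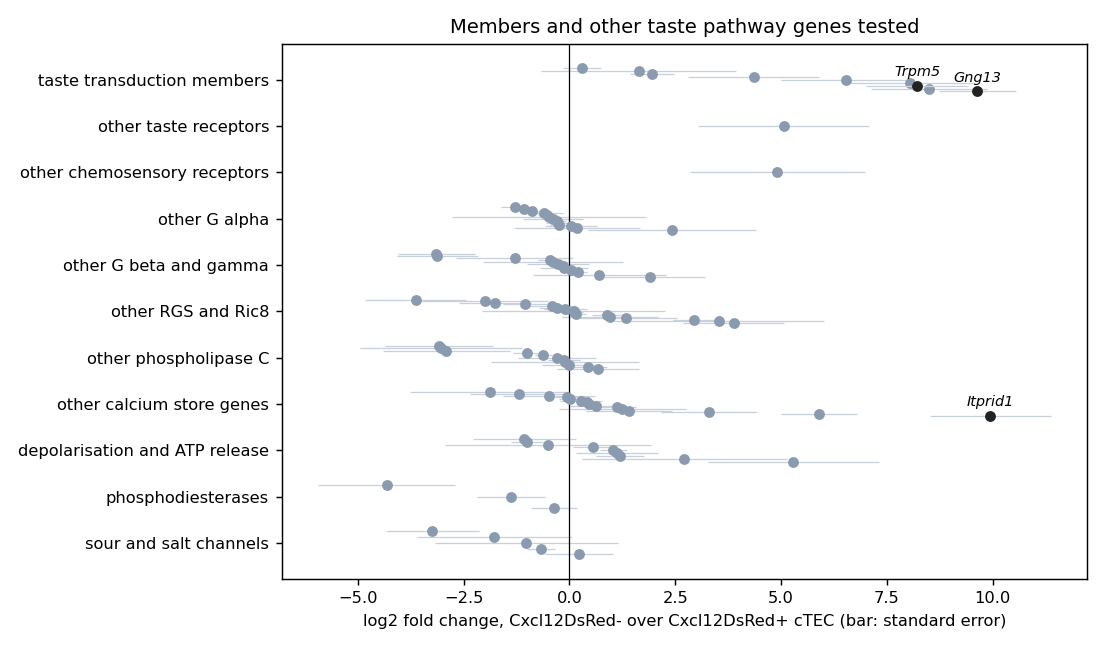
Log2 fold change of the 9 tested members and of the 86 tested genes of the 10 other lists, with the standard error as a bar. Black points passed at an adjusted p under 0.05 (*Trpm5*, *Gng13* and *Itprid1*), and most of the other G protein and phospholipase C genes lie near or below 0.

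Other genes of the same protein families mostly did not follow the taste genes. None of 13 tested alpha subunits, 12 beta and gamma subunits or 11 phospholipase C genes passed, and by sign 10 of the 13, 8 of the 12 and 9 of the 11 were lower. *Gna11*, a subunit that activates phospholipase C beta, stood at 44.6, 42.6 and 41.2 CPM in *Cxcl12*DsRed- cTEC and at 85.6, 77.3 and 109 CPM in *Cxcl12*DsRed+ cTEC (edgeR adjusted p = 0.0901, −1.08 ± 0.22 on the log2 scale, with the standard error). *Gna12* differed by −1.30 ± 0.32 on the log2 scale (edgeR adjusted p = 0.140). The gamma subunit genes *Gng11* and *Gngt2* had log2 fold changes of −3.15 and −3.12 (edgeR adjusted p of 0.205 and 0.232). Both were lower in each *Cxcl12*DsRed- library than in any *Cxcl12*DsRed+ library, as were 9.32% of all genes tested. Both were highest in the *Cxcl12*DsRed+ library of C, which also held the most endothelial markers, and a link between them was not tested. Among phospholipases *Plcd1* (log2 fold change −0.61) and *Plcg1* (−0.99) had the smallest p, with edgeR adjusted p of 0.285 and 0.311.

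Among 16 RGS and Ric8 genes tested, none passed. *Rgs2*, an inhibitor of Gq signalling, stood at 166, 69.2 and 87.0 CPM against 7.50, 15.7 and 18.8 CPM, with no overlap of the subsets (edgeR adjusted p = 0.0621, 2.94 ± 0.49 on the log2 scale, with the standard error). *Rgs17* differed by 3.88 ± 1.20 on the log2 scale (edgeR adjusted p = 0.241). *Rgs21*, an RGS gene of taste cells, had counts in a single library, at 4.06 CPM in *Cxcl12*DsRed- cTEC of A.

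Steps after TRPM5 gave no call among 9 genes tested. *Calhm3*, a subunit of the channel that releases ATP from taste cells, stood at 17.4, 14.5 and 7.08 CPM in *Cxcl12*DsRed- cTEC and at 0.983, 0 and 0 CPM in *Cxcl12*DsRed+ cTEC (edgeR adjusted p = 0.367). Its partner *Calhm1* had 0 counts in all 6 libraries. *Entpd2*, the gene of an ATP-degrading enzyme on cells that surround taste cells, had a log2 fold change of 1.04 (edgeR adjusted p = 0.231), and the ATP channel gene *Panx1* a negative one (edgeR adjusted p = 0.362). *Trpm4*, the channel closest to *Trpm5*, stood at 49.2, 20.3 and 26.9 CPM against 7.71, 9.89 and 24.7 CPM, so it overlapped between the subsets.

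Bitter taste receptors were read at low levels and mostly in *Cxcl12*DsRed- cTEC. Of 36 other taste receptor genes, the 35 *Tas2r* genes and *Tas1r2*, 13, 3 and 16 had a count in the A, B and C libraries of *Cxcl12*DsRed- cTEC, and 4, 0 and 0 in the *Cxcl12*DsRed+ libraries. Their summed counts were 1245, 258 and 509 against 53, 0 and 0. *Tas2r138* alone passed the filter, at 3.49, 7.61 and 3.22 CPM against 0.416, 0 and 0 CPM (edgeR adjusted p = 0.392). *Tas2r136* (6.30, 0 and 1.08 CPM) and *Tas2r108* (5.43, 0 and 2.48 CPM) had 0 counts in all *Cxcl12*DsRed+ libraries. The sweet receptor subunit gene *Tas1r2* and 15 *Tas2r* genes had 0 counts in all 6 libraries. The genes of this family resemble each other, so single members are uncertain.

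Other chemosensory receptors were nearly missing. *Sucnr1*, the succinate receptor gene of intestinal tuft cells, *Ffar3*, *Vmn2r26*, *Oxgr1* and *Gprc6a* had 0 counts in every library, with a limit of 0.0567 to 0.0913 CPM per library. The calcium-sensing receptor gene *Casr* stood at 7.39, 18.2 and 0.221 CPM in *Cxcl12*DsRed- cTEC and at 0.737, 0.104 and 0 CPM in *Cxcl12*DsRed+ cTEC (edgeR adjusted p = 0.423). Phosphodiesterases of the gustducin branch and the sour and salt channels gave no call among 3 and 5 genes tested. The smallest p were those of *Pde1b* (log2 fold change −4.32, edgeR adjusted p = 0.356), *Pde1a* (−1.38, 0.606), *Car4* (−3.24, 0.290) and *Scnn1a* (−0.67, 0.514).

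The 8 genes outside the pathway whose log2 CPM varied most like the mean of the 9 tested members over the 6 libraries were *Serpinb8*, *Sh2d7*, *Ddit4l*, *Cxadr*, *Grb7*, *Krt23*, *Upk1b* and *Rasef*, with Pearson's r of 0.991 to 0.998. These 6 points share the split into 2 subsets, so many genes reach a high r. Against the same mean the members stood at r of 0.999 for *Gnb3*, 0.997 for *Trpm5* and *Rgs13*, 0.983 for *Gng13*, 0.963 for *Gnat3*, 0.937 for *Plcg2*, 0.865 for *Plcb2*, 0.370 for *Itpr3* and 0.217 for *Tas1r3*. Each of these members is itself part of that mean, so a high r is in part built in. *Sh2d7*, an adaptor gene of tuft cells, stood at 194, 45.7 and 30.7 CPM against 0.662, 0.0417 and 0.0773 CPM.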

How the data were processed

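RNA was measured in 6 libraries, 3 of each cTEC subset. The authors made libraries for low RNA input (SMARTer Ultra Low Input kit). Per the labels and the methods, Trimmomatic 0.36 trimmed the reads, STAR 2.7.3a aligned them to mm10, and HTSeq (intersection-nonempty) counted them per gene. The deposited values are whole-number counts per gene. Counting by strand is not given in the sources used here, so overlapping genes on opposite strands cannot be told apart. Reads in no gene came to 5.87% to 9.35% and reads aligned to several places to 5.61% to 9.07% of the counts in genes. Library sizes and tests excluded the spike-ins, the summary lines and DsRed.

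A table of gene IDs and symbols named 37607 of the 39179 IDs, and positions and exon lengths came from GENCODE M21 (GRCm38, the same build as mm10). The counts went into edgeR 4.0.16 (R 4.3.3): filterByExpr at a minimum count of 10, TMM scaling, then the quasi-likelihood test (prior count 0.125), with Benjamini-Hochberg adjusted p under 0.05 as the threshold. The standard error is the log2 fold change divided by the square root of the F statistic. A count of 0 was taken to allow up to 3 counts, which covers counting error only. Tried besides were a block for the experiment, the likelihood ratio test of edgeR, DESeq2 1.42.0, limma 3.58.1 with voom, other scalings and filters, and leaving out libraries and experiments. The test was tested on simulated data with the same dispersion for every gene, which does not stand for the spread between these libraries.

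Both subsets have libraries named for experiments A, B and C in the labels, and these names paired them. Across genes, the deviations from the subset mean of libraries of the same experiment had correlations of 0.0296, 0.0892 and 0.0810 in A, B and C, and those of other pairings at −0.111 to 0.00632. The study describes 3 independent biological replicates in 1 place and a technical triplicate in another, so the spread behind the p-values is that of these libraries and may be technical in part. Members and gene lists were chosen with earlier results of these data known. The text names all 10 members, of each list the genes that passed or otherwise the 2 with the smallest p, and the 8 genes most alike by Pearson's r of log2(CPM + 0.1) among genes with a mean of at least 1 CPM. Some further genes are named for their role and were chosen after their values were seen. *Pde2a* was not analysed here, and single results of some listed marker genes are not reported here.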

Additional observations from a re-analysis of the deposited data

How the results depend on the processing

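With the experiment as a replicate block, 4 of the members passed as higher (2 without it), 0 of the other pathway genes passed edgeR's quasi-likelihood test (20 at an unadjusted p under 0.05) and 73 of all genes passed (97 without it). The likelihood ratio test of edgeR passed 880 of all genes, 6 members and 11 other pathway genes. By DESeq2 1081, 7 and 13 passed, with 532 adjusted p-values not available. By limma with voom 4 of all genes passed, and 0 members and 0 other pathway genes (4 and 20 at an unadjusted p under 0.05). With no filter on low counts 168 of all genes and 3 other pathway genes passed, and with RLE size factors or a mean of at least 1 CPM 2 other pathway genes passed. Leaving out a library or an experiment gave 0 to 139 calls over all genes, 0 to 2 among the members and 0 to 1 among the other pathway genes. In these leave-outs 5 to 7 members were higher at an unadjusted p under 0.05, and the loss of calls extends to all genes. Without the *Cxcl12*DsRed- library of A 0 genes passed (1581 at an unadjusted p under 0.05). The number was also 0 on dropping any other single library from experiments A and B, or either experiment whole. In experiment C it was 1 without *Cxcl12*DsRed+ cTEC, 139 without *Cxcl12*DsRed- cTEC and 35 without both. The log2 fold change stayed positive in all settings tried for *Trpm5* (leave-outs 7.09 to 9.64), *Gng13* (8.67 to 10.04), *Gnb3* (6.33 to 10.06), *Rgs13* (7.43 to 10.61), *Gnat3* (5.45 to 7.90), *Plcb2* (2.62 to 5.03) and *Plcg2* (1.62 to 2.31). It turned for *Itpr3*, at −0.07 without the *Cxcl12*DsRed- library of B and −0.34 without experiment B (highest 0.67), and for *Tas1r3*, at −0.32 without experiment A (highest 4.41). The cause was not tested. Most of the taste receptor genes had too few counts for a test at this depth, and the reason for their low counts was not tested.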
